A study of Mus musculus with 2 samples.

Results

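Cytosolic ribosomal proteins are the proteins that, with the ribosomal RNAs, build the small and large subunits of the ribosome outside mitochondria. The genes were chosen by name: every gene in both deposited gene tables whose Ensembl identifier maps to a protein-coding mouse symbol of the Rps, Rpl, Rplp or Rpsa form, with a plain number and at most an a, l or x behind it. This gave 80 of the 43346 Ensembl genes in the tables. Of these, 76 encode core proteins (30 of the small subunit and 46 of the large subunit, the stalk included) and 4 (Rps27l, Rpl39l, Rpl3l and Rpl10l) are paralogues, that is, duplicated relatives of a core gene. Within this family the rule used names alone and no measured value.

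The libraries are total RNA-seq of the facial prominence, the embryonic tissue that forms the face, from B6NCrl mouse embryos collected at embryonic day 14.5; the input was 10.0 ng of RNA longer than 200 bases, with spike-in RNAs added. There is a single group with 2 biological replicates and no treatment named in the labels, so the design holds no comparison of conditions and no test was made. Each library was labelled as a single cranioface with its own collection date, while another label calls the sex pooled, and the replicate numbers are the labels' own. Whole tissue was used, so that fewer cells of a type and less RNA per cell cannot be told apart. Replicate 1 held 30919488 expected counts and replicate 2 held 37738872. All 6 listed markers of facial mesenchyme were above 1 TPM in both libraries, with a median of 46.5 TPM (a transcript abundance corrected for length and depth). Of the 5 listed forebrain markers, 1 reached 1 TPM in both libraries, beside 63.9% of all protein-coding genes. Their median was 0.23 TPM, from Neurod6 at a mean of 0.035 TPM to Otx1 at 2.195 TPM. The 5 red-cell genes, mostly globins, summed to 28534 TPM in replicate 1 and 33179 in replicate 2.

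A ribosome holds a single copy of nearly every ribosomal protein, so a growing cell makes these proteins in near-equal numbers. The exception is the acidic stalk of the large subunit, where Rplp1 and Rplp2 bind in several copies to Rplp0 and recruit the elongation factors. Ribosomal protein messages begin with a run of pyrimidines, the terminal oligopyrimidine tract through which growth signals set their translation. Mammalian genomes also carry many processed pseudogenes of these genes, which are spliced messages copied back into DNA. Where such a copy keeps the sequence of its parent, a short read does not show which of them it came from.

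Sequences that show this sharing come first. Reads here were 100 bases long, as the effective lengths of the files imply (99 bases under the full length), so stretches of that length are given. Rpl5 lies at chr5:107900502-107909005 on the plus strand (mm10). The first 100 bases of its coding sequence are held letter for letter by Gm15500, a transcribed processed pseudogene at chr7:114705217-114706235, as is the whole 891-base coding sequence:
Rpl5: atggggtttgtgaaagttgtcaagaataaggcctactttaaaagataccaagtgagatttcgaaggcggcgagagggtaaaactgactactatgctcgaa
Rps27 (chr3:90212522-90213651, minus strand) and its paralogue Rps27l (chr9:66946086-66949516, plus strand) both have 252 coding bases and differ at 60 of them. In the first 100 bases the 25 differing positions stand in capitals, and no 100-base window of Rps27l occurs in another gene. In contrast, Rps27rt, a single-exon coding copy at chr9:114982366-114982739, holds the whole coding sequence of Rps27 exactly:
Rps27: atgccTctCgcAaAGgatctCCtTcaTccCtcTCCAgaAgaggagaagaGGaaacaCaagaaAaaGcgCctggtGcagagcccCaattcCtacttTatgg
Rps27l: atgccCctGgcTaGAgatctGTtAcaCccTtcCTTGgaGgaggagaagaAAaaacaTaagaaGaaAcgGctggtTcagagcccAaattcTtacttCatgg

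The facial prominence expressed the whole core set at a high level. All 76 core genes were above 1 TPM in both libraries, and 78 of the 80 members were, against 63.9% of the 21474 protein-coding genes. Among the 15715 genes with a mean of at least 1 TPM, 75 of the 76 core genes lay in the top 10% and 64 in the top 2%. The members summed to 7.10% of all TPM in replicate 1 and 7.03% in replicate 2 (mean 7.07% ± 0.049, SD, n = 2). Their share of the expected counts, which are not divided by length, was 2.73% ± 0.058 (SD, n = 2). The median core gene stood at 856 TPM in replicate 1 and at 824 TPM in replicate 2. Of the core genes, 59 of 76 lay within 2-fold of that median in both libraries.

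**Figure D1:**
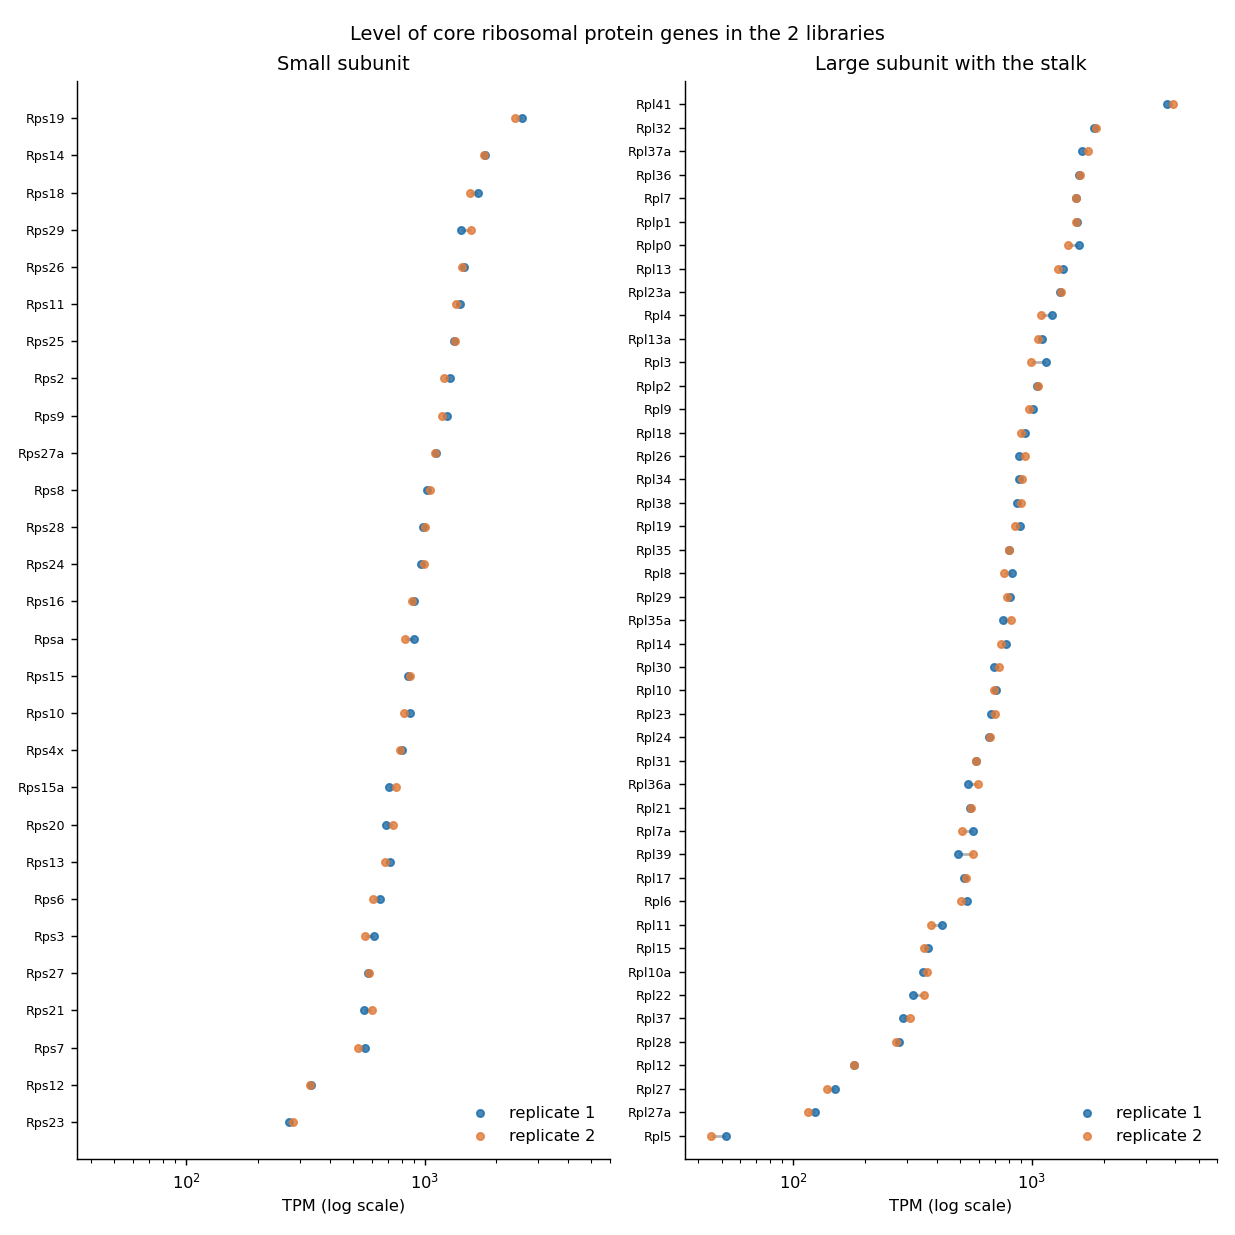
Level of core genes in TPM on a log axis, small subunit on the left and large subunit with the stalk on the right, 1 point per library and genes in order of their mean. The points of a gene lie close together against the range over genes, which runs from Rpl5 at 52.4 and 45.0 TPM to Rpl41 at 3702 and 3904 TPM.

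Small-subunit genes had medians of 935 and 940 TPM in replicates 1 and 2. Rps19, which is needed to mature the small subunit's RNA, was the highest of them at 2550 and 2385 TPM in replicates 1 and 2. Rps14, which sits on the platform of the small subunit, followed at 1786 and 1780 TPM. Rps18 was measured at 1666 and 1554 TPM. All 3 were above the median core gene by more than their spread between the libraries. At the other end, Rps23, a protein of the decoding centre, stood at 270 and 281 TPM.

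Large-subunit genes, the stalk included, had medians of 791 and 777 TPM. Rpl41, which encodes the smallest ribosomal protein, was the highest of all members (chr10:128548114-128549305, minus strand) at 3702 and 3904 TPM. Rpl32 followed at 1816 and 1849 TPM, Rpl37a at 1628 and 1725 TPM, Rpl36 at 1579 and 1591 TPM and Rpl7 at 1538 and 1531 TPM. In the order over all members, Rpl41, Rps19, Rpl32 and Rps14 did not overlap with their neighbours, while from Rpl37a down the values of adjacent genes mostly did. The lowest core genes were Rpl5 at 52.4 and 45.0 TPM, Rpl27a at 123 and 116, Rpl27 at 149 and 139 and Rpl12 at 179 and 180. Rpl28 was at 278 and 269 TPM and Rpl37 at 289 and 308 TPM.

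The stalk genes were all above the core median. Rplp0, the stalk's scaffold, was measured at 1574 and 1424 TPM, Rplp1 at 1540 and 1529 TPM and Rplp2 at 1048 and 1065 TPM. The ranges of Rplp0 and Rplp1 over the libraries overlapped, and Rplp2 was below both.

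Core proteins whose names fall outside the rule were at similar levels. Rps3a1, a small-subunit protein, was at 1219 and 1132 TPM. Fau, which encodes a small-subunit protein fused to a ubiquitin-like domain, was at 569 and 568 TPM. Rack1, a signalling scaffold on the small subunit, was at 743 and 708 TPM.

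The lowest core genes were mostly those with many counts on their copies. Sequence search found 740 near-copies of the members (at least 90% identity over at least 80% of the copy), of which 729 are annotated pseudogenes and 11 are single-exon genes annotated as coding. A member had a median of 6 copies, and 4 members had none, Rps9, Rpl39l and Rpl3l among them. Counts were assigned to 482 copies in at least 1 library, but 28 copies with at least 1000 counts in both libraries held 91.9% ± 0.099 of all copy counts (SD, n = 2), and 18 of these 28 are 100% identical to the parent over the aligned part. Together, 15.7% ± 0.15 (SD, n = 2) of the counts on members and copies were assigned to copies.

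Rpl5, which with Rpl11 and the 5S RNA forms a particle that binds Mdm2, had the largest share on copies, at 91.9% ± 0.56 (SD, n = 2). It kept 1278 and 1470 expected counts in replicates 1 and 2, while Gm15500, which holds the stretch printed above, was assigned 13817 and 17691. Rps27 had 82.9% ± 0.23 of its counts on copies, with 8518 and 11432 on Rps27rt against 1779 and 2333 on Rps27 itself. Rpl27 had 81.5% ± 0.59, Rps23 72.0% ± 0.92 and Rpl27a 66.4% ± 0.90 (SD, n = 2 for each). Of the 10 lowest core genes, 9 had at least 30% of their counts on copies, as against 9 of the other 66; Rpl22 was the exception. Since the share is taken over parent and copy counts, a low parent count raises it by construction, so this is a description and not independent evidence. The 18 core genes with at least 30% on copies had a median of 358 TPM in both libraries, and the 45 with under 5% had medians of 1011 and 994 TPM.

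With the counts of the copies added to the parent, the range of the core set was narrower. The lowest core level went from 52.4 and 45.0 TPM to 317 (Rpl22) and 351 TPM (Rpl27a), and the highest over the lowest went from 78.7-fold ± 11.3 to 11.4-fold ± 0.40 (SD, n = 2). Genes within 2-fold of the median numbered 68 of 76 in place of 59. The 18 genes with at least 30% on copies, whose levels this adding must raise, then had medians of 855 and 842 TPM, beside 1048 and 1015 TPM for the 45 genes with under 5%. Rpl5 with its copies came to 619 and 587 TPM. How many of these counts are transcripts of the copies was not tested. These levels depend on the parent's length, which differs by over 10 bases between the files and the main coding transcript of the later annotation in 52 of the 76 core genes. The files' gene length is an average over the gene's transcripts, so part of this difference is a choice of transcript and not a change of annotation. The later lengths put all counts of a gene on its main coding transcript, an alternative chosen after seeing the data. With them, the highest over the lowest went from 129-fold ± 15.4 to 31.4-fold ± 0.25 when copies were added (SD, n = 2). Genes within 2-fold of the median went from 56 to 63. The lowest was then Rps20 at 126 and 131 TPM, whose main coding transcript has 3706 bases in the files as well. The files put 5.4% of its TPM on that transcript. They assign 6084 of its 8946 and 8383 of its 12048 counts to the 582-base Rps20-201, so the low value rests on the transcript chosen. Rps27 with its copies reached 3348 and 3463 TPM with the 255 bases of the files but 2123 and 2196 TPM with 345 bases.

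**Figure D2:**
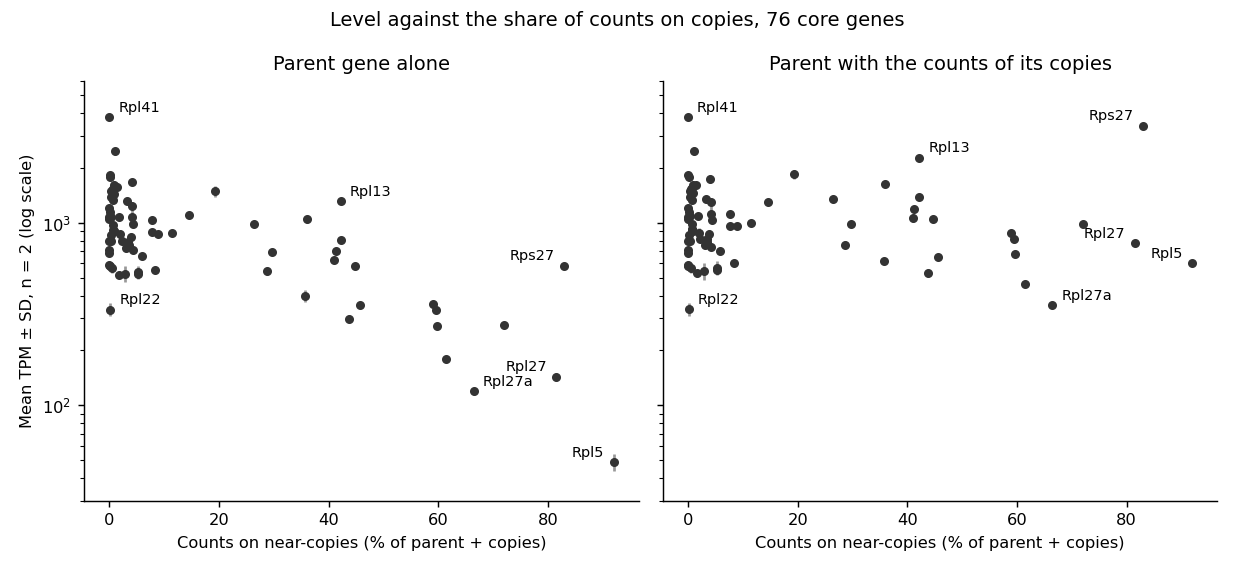
Mean TPM on a log axis (error bars, SD of 2 libraries, mostly hidden by the points) of the 76 core genes against the percent of parent and copy counts assigned to copies, for the parent alone on the left and with the copies' counts added on the right. Rpl5 moves from 48.7 to 603 TPM, while Rpl22, with 0.18% on copies, is low in both panels, which use the files' lengths.

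Rpl22 was low with the files' lengths and had almost no counts on copies. It is a large-subunit protein known for a role outside the ribosome in lymphocyte development (chr4:152325742-152334071, plus strand). It was measured at 316 and 354 TPM, all of its 100-base windows were its own, and 0.18% ± 0.031 (SD, n = 2) of its counts were on copies. With copies added it was the lowest core gene by mean with the files' length. With all these counts put on its 474-base main coding transcript, it was at 525 and 523 TPM and stood above 10 core genes. The files give that transcript the same 474 bases but assign it 1910 and 2906 of the gene's 3876 and 4988 counts, or 258 and 304 TPM. The higher values therefore rest on the transcript chosen and not on a changed annotation. In the files' own uncertainty measure, the posterior SD of its count was 0.015% of the count on average, as against 3.68% for Rpl5 and 6.0% for Rps27, the highest of the core genes. For Rpl5 the authors' credibility bounds ran from 47.0 to 56.0 TPM in replicate 1 and from 41.1 to 48.4 TPM in replicate 2, so the stated uncertainty is far smaller than the change that adding the copies makes.

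The share of exactly repeated sequence and the share of counts on copies differed between genes. Over the core genes a median of 60.3% of the 100-base windows of the main coding transcript occurred in no other gene, and 8 genes had all windows to themselves. The fewest own windows were in Rps27 (1.63%), Rpl10 (8.43%), Rpl9 (13.0%), Rps6 (16.4%) and Rpl24 (19.9%). Rpl9 and Rpl24 had 4.37% and 5.90% of their counts on copies (means of 2 libraries) and were at 1011 and 969 TPM and at 660 and 666 TPM. Rpl10, an X-linked protein of the peptidyl transferase region, had 41.3% on copies and was at 708 and 692 TPM. Rps6, the target of the S6 kinases, had 41.0% on copies and was at 647 and 610 TPM. The windows come from transcript models of a later annotation than the files used.

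With counts as assigned in the files, the paralogues ranged from genes about as high as their core relative to genes with few or no counts. With the files' lengths Rpl22l1 was above Rpl22 in both libraries, at 415 and 460 TPM, and made up 56.6% ± 0.18 of the summed TPM of that pair (SD, n = 2). Rpl22l1 was below the values of Rpl22 with copies added and all counts put on the main coding transcript of Rpl22. The same change was not made for Rpl22l1, so the lengths of this pair were not set alike there. Rpl36al was at 465 and 535 TPM beside Rpl36a at 541 and 593 TPM, lower than its X-linked relative within each library. Rps27l, a gene known to be induced by p53, was at 467 and 516 TPM, below Rps27 at 578 and 587 TPM. That level of Rps27 leaves out the 82.9% of counts on its copies and uses the files' 255 bases, beside 345 in the later annotation. The order and closeness of this pair therefore depend on read assignment and length. Rps27 and Rps27rt, which hold the same coding sequence, together came to 2172 and 2242 TPM.

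Lower were Rps4l at 175 and 119 TPM beside Rps4x at 800 and 789 TPM, and Rpl7l1, a protein of ribosome assembly, at 84.9 and 78.2 TPM beside Rpl7. Rps4l is annotated as a transcribed pseudogene here. Rpl39l, known from the testis, was at 9.82 and 8.60 TPM from 120 and 130 counts, beside Rpl39 at 489 and 567 TPM. Rpl3l, the form of striated muscle, had 2 and 7 counts, or 0.11 and 0.29 TPM, beside Rpl3 at 1149 and 994 TPM. Rpl10l, which replaces X-linked Rpl10 in male germ cells, had 0 counts in both libraries (chr12:66283379-66284401, minus strand), which allows up to 0.165 and 0.127 TPM at 3 counts, for counting error only. The remaining extra copies on the list were Rps12-ps3 at 62.3 and 69.2 TPM, Rpl9-ps6 at 43.7 and 42.6 TPM and Rps27a-ps1 at 0 and 0.22 TPM.

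**Figure D3:**
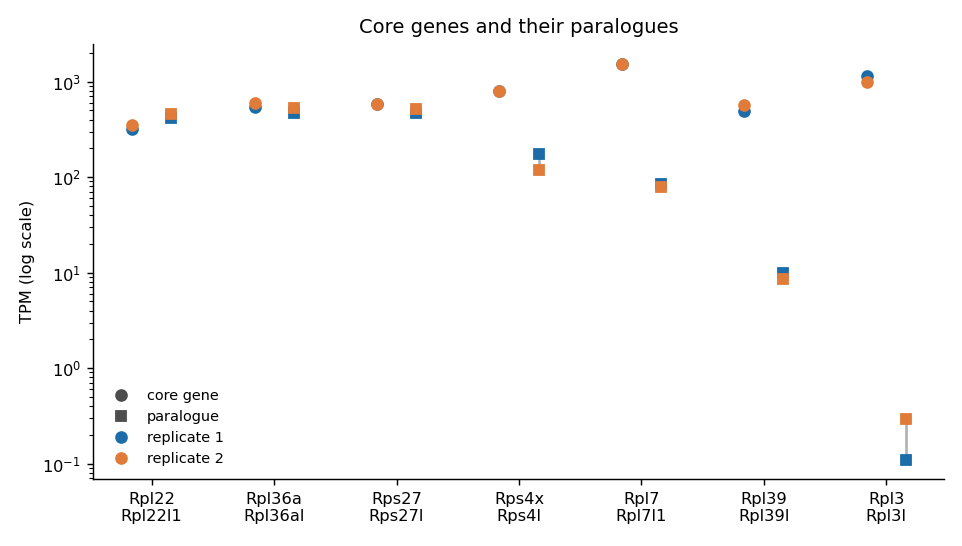
TPM on a log axis of 7 core genes (circles) and their paralogues (squares) in replicate 1 (blue) and replicate 2 (orange). Rpl22l1, Rpl36al and Rps27l lie beside their core gene, while Rpl39l is under 10 TPM and Rpl3l under 1 TPM; Rpl10l is left out because it has 0 counts. Rps27 is drawn without its copies, which were assigned 82.9% of the counts on it and its copies.

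Genes of human and mouse ribosomal disease were all expressed. The 20 genes on the list for Diamond-Blackfan anaemia, a failure of red-cell formation that can come with craniofacial malformation, had a median of 822 TPM, from Rpl5 to Rps19. Rps26 was measured at 1462 and 1438 TPM, Rps29 at 1422 and 1564, Rps24 at 966 and 996, Rps28 at 979 and 1005, and Rps10 at 867 and 815. On the large subunit, Rpl18 was at 937 and 903 TPM, Rpl26 at 880 and 938, Rpl35 at 802 and 803, Rpl35a at 760 and 819, and Rpl31 at 583 in both libraries. Rpl11 was at 419 and 376 TPM and Rpl15 at 367 and 353 TPM. The share of counts on copies was 35.8% for Rpl11, 59.0% for Rpl15, 44.7% for Rpl31 and 42.2% for Rpl35. It was 26.5% for Rps28 and 19.3% for Rps29. With copies added, Rpl35 came to a mean of 1388 TPM and Rpl31 to 1056 TPM.

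The 7 listed genes with mouse mutants of patterning or pigment covered a wide range. Rpl38, whose loss in the tail-short mouse alters the axial skeleton, was at 865 and 898 TPM. Rpl24, mutated in the belly spot and tail mouse, was given above. Rps20, a dark-skin gene together with Rps19, was at 690 and 735 TPM. Rps7, with 28.7% of its counts on copies, was at 561 and 525 TPM. Rpl27a, mutated in the sooty foot ataxia mouse, was the lowest of the list, with the share on copies given above. The 4 X-linked core genes (Rpl10, Rpl36a, Rpl39 and Rps4x) ranged from a mean of 528 TPM for Rpl39 to 795 TPM for Rps4x. Core genes lie on 19 chromosomes, with 14 of the 76 on chromosome 7.

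Between the libraries the members differed little. Differences are given as log2 ratios of replicate 2 over replicate 1 on TPM with a pseudocount of 1. They had an SD of 0.089 over the 78 members with a mean of at least 5 TPM, as against 0.28 over all 11482 genes with that level and 0.19 over the 1490 genes of at least 100 TPM. Relative to the median gene, 0 of the 78 members were past 1.5-fold higher and 0 past 1.5-fold lower, beside 2.03% and 0.514% of all genes, or 2.54% in either direction. These are values of a pair of libraries of the same group, with no test.

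The median of all genes lay at -0.15 and that of the members at -0.02, so that 73 of the 78 members were above the median gene. Rpl39 had the highest ratio at 0.21, followed by Rpl22 at 0.16, Rps27l at 0.14, Rps29 at 0.14 and Rpl36a at 0.13. The files' effective length of Rpl22 was 622 bases in replicate 1 and 553 in replicate 2. With copies added and a fixed length of 474 bases, Rpl22 was at 525 and 523 TPM, so its rank depends on the length estimate. The lowest were Rpl5 and Rpl3 at -0.21, Rpl39l at -0.17, and Rpl7a and Rpl11 at -0.16. With copies added, Rpl5 was at -0.076 and Rpl11 at -0.056, while Rpl3 stayed at -0.21 and Rpl7a was at -0.17. In TPM, 34 members were higher in replicate 2 and 44 lower.

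The ratio went with transcript length. Over the 76 core genes, which share both libraries and their depth, it had a Pearson r of -0.58 with log2 length and a Spearman rho of -0.56, and r was -0.58 without the 2 genes farthest from the median length. All 10 core genes over 1000 bases were lower in replicate 2, with a median of -0.12, and 11 of the 16 up to 500 bases were higher, with a median of 0.03. Other coding genes with a mean of at least 5 TPM had the same order: their medians were 0.07 for 93 genes up to 500 bases and -0.16 for 3008 genes of 1000 to 2000 bases. Between 500 and 750 bases, the median was -0.0026 for 28 core genes and -0.0027 for 310 other coding genes. Between 750 and 1000 bases, it was -0.025 for 22 core genes and -0.085 for 569 other coding genes. The red-cell genes, which are also short, had a median ratio of 0.16. The part of length, RNA quality or red cells in the ratio was not tested.

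**Figure D4:**
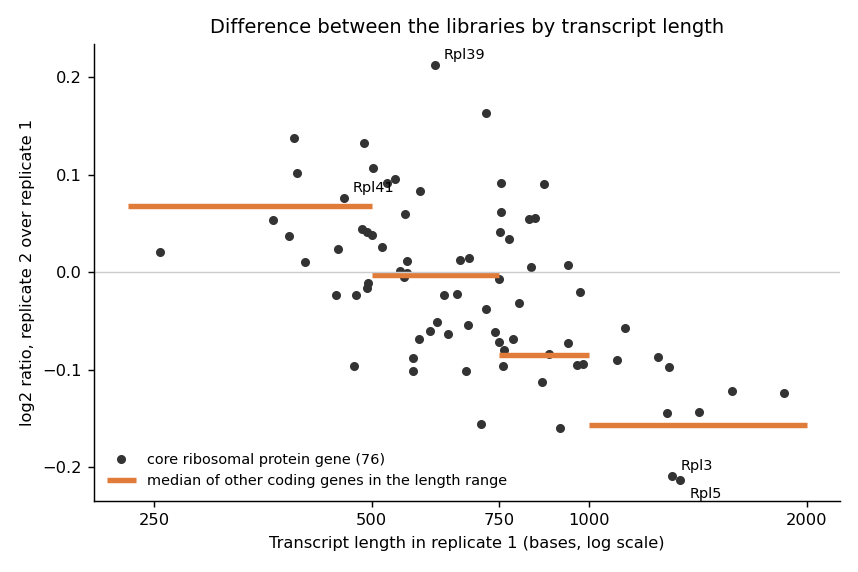
The log2 ratio of replicate 2 over replicate 1 for each core gene against its transcript length on a log axis, with orange bars at the median of other coding genes in 4 length ranges. Core genes over 1000 bases all lie below 0, and Rpl39, Rpl5 and Rpl3 are the extremes. Ratios are of the parent gene alone, and with copies added Rpl5 is at -0.076.

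The members had a median of 4 annotated transcripts each. In 38 of the 79 members with any counts, a single transcript held at least 95% of the gene's TPM in both libraries, and in 23 it held under 80%. The smallest main-transcript shares were in Rpl13a (40.1% ± 2.0), Rpl5 (42.6% ± 2.5), Rpl38 (43.0% ± 1.4), Rpl11 (47.0% ± 2.2) and Rpl15 (49.99% ± 2.9) (SD, n = 2 for each). Rps24, known for alternative last exons, had 95.1% ± 0.64 on Rps24-201.

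Transcripts annotated as protein-coding held 90.9% ± 0.0072 of the members' TPM, those of the processed-transcript class 4.15% ± 0.010, retained-intron transcripts 3.15% ± 0.026 and transcripts marked for nonsense-mediated decay 0.53% ± 0.015 (SD, n = 2 for each). Transcripts absent from the later annotation (GENCODE M21) held 1.32% ± 0.023 (SD, n = 2). The classes are those of the later annotation, while the authors estimated the TPM on GENCODE M4 models. Rpl35 had 94.9% ± 0.35 of its TPM on transcripts not annotated as coding, Rps20 94.6% ± 0.32, Rpl23 70.2% ± 0.092 and Rpl5 51.2% ± 0.45. In Rps20 the retained-intron transcript Rps20-201, of 582 bases, was estimated at 639 and 681 TPM, and the coding transcript Rps20-203, of 3706 bases, at 38.8 and 38.0 TPM. Rpl12 had 72.4% ± 0.81 on transcripts marked for decay. The models of a gene can share reads, and whether such transcripts differ in translation was not measured.

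Starts of the genes were set beside the levels. RefSeq promoter windows (GRCm38.p6) matched 56 of the 76 core genes, and 28 of these 56 (50%) had a run of at least 8 consecutive C or T within 20 bases of an annotated start on the gene's strand, compared with 18.4% of the 27025 genes in the table. Read on the other strand, as runs of A or G, the same length was found in 5 core genes (8.93%) and in 20.2% of all genes. Core genes with the pyrimidine run had a median of 834 and 817 TPM, and the 28 without it 691 and 686 TPM. These are levels of the parent gene alone, and the groups overlapped: Rpl5, the lowest core gene, held a run and Rpl41, the highest, did not. Whether the run goes with the level was not tested. The 5 longest runs are printed, followed by Rpl41, the highest gene, whose window holds none. Each window runs from 20 bases before the start to 20 after it, with the run in capitals:
Rpl7a (chr2:26910787-26910826, plus strand): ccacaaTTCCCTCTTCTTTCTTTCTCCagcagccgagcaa
Rpl34 (chr3:130730318-130730357, minus strand): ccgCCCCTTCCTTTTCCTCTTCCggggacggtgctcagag
Rpl27a (chr7:109519175-109519214, plus strand): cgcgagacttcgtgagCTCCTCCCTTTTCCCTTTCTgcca
Rpl35 (chr2:39005112-39005151, minus strand): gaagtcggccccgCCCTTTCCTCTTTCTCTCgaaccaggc
Rpl15 (chr14:18270967-18271006, minus strand): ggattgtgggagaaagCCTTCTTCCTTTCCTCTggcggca
Rpl41 (chr10:128549149-128549188, minus strand): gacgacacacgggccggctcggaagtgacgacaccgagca
A match describes these letters and not a used start.

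Related lists of the translation machinery had lower medians. The 77 genes of mitochondrial ribosomal proteins had medians of 82.6 and 72.6 TPM, and the core cytosolic median was 10.9-fold ± 0.69 higher (SD, n = 2). Their upper quartile was 2.40-fold ± 0.055 the lower one, beside 1.98-fold ± 0.12 for the core cytosolic genes, 1.84-fold ± 0.0071 with copies added and 2.01-fold ± 0.057 with copies and the later lengths. The 8 translation elongation factors had a median of 417 TPM, from Eef1a2, the muscle and neuron form, at 0.70 to Eef1a1 at 4826. Of 16 other genes listed for a terminal pyrimidine tract, 15 were matched and had a median of 379 TPM, from Eif3f at 85.2 to Tpt1 at 1078. The 37 ribosome assembly factors had a median of 44.3 TPM, from Polr1b, a subunit of RNA polymerase I, at 8.16 to Ncl, nucleolin, at 225. None of the genes on these lists with a mean of at least 5 TPM was past 1.5-fold between the libraries relative to the median gene, beside the 2.54% of all genes.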

How the data were processed

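Total RNA-seq of 2 libraries of embryonic facial prominence was analysed from gene and transcript tables for mm10 with GENCODE M4, per the companion text (the aligner and strand setting: not given in the sources used here). Per the file headers, the authors deposited expected counts, which are estimates that need not be whole. TPM values were computed by the authors from those counts and the effective lengths, and FPKM values were deposited beside them. Transcript percentages (percent of the gene's TPM) are the authors' values, per the file headers, as are posterior SDs and credibility bounds, whose level is not stated. Totals were 30919488 and 37738872 expected counts.

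Names, positions and transcript classes came from GENCODE M21 by Ensembl identifier (98.0% of 43346 genes matched). Near-copies were found with BLAST 2.17.0 (blastn) against each member's main coding transcript, keeping annotated pseudogenes and single-exon coding genes. A pooled level is the parent's and copies' counts over the parent's effective length, on the TPM scale. Ratios used log2(TPM + 1), which understates low genes, on genes with a mean of at least 5 TPM. With 2 libraries in a single group no significance test was made. The code that makes the fold calls was tested on simulated data. Alternatives included edgeR 4.0.16 TMM and DESeq2 1.42.0 size factors, computed from expected counts rounded to whole numbers.

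Named genes are the 10 highest and 10 lowest members, the 5 largest ratios in each direction, all paralogues, disease and mutant genes, and the 5 most extreme for copy share, own windows and main-transcript share; other lists are given by count, median and extremes. The gene family and the lists were chosen with earlier results of these data known, while the rule that picks the members reads names alone. A few genes are not reported here by name; counts and medians include them.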

Additional observations from a re-analysis of the deposited data

How the results depend on the processing

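Among 41 alternatives to 8 results, 26 left the value within the spread between the libraries (for counts, within 1.5 times; for the median log2 ratio, within the SD over members) and 15 moved it. The summed share of TPM, 7.07%, was 7.81% of the total over Ensembl genes alone, 9.12% with the copies and 2.73% of expected counts. The median member level, 814 TPM, was 534.3 in FPKM, 770.5 with full lengths and 949.1 with copies added, 895.9 with annotated pseudogenes alone and 869.2 with copies and the later annotation's lengths, both chosen after seeing the data. The quartile ratio, here 1.99 over the 78 detected members and not over the core genes alone, was 2.07 with full lengths and 1.90 with copies. It was 2.07 with copies and the later lengths, chosen after seeing the data. The median log2 ratio, -0.02, was 0.13 with TMM and with DESeq2 size factors, which put the median gene near 0. The copies' share, 15.7%, was 22.5% in TPM and 13.9% with annotated pseudogenes alone, also chosen after seeing the data. Leaving out either replicate gave 78 detected members, 7.03% to 7.10%, 809.3 to 818.7 TPM, a quartile ratio of 1.94 to 2.04, a copies' share of 15.5% to 15.8% and 24 members under 80%. Apart from the counts of members, these had to lie within the spread, because each main value is the mean of the 2 libraries. They count among the 26 but are no check of the values. No member passed the fold under any of the 5 alternatives run. One of them was a 2-fold cut, whose result of 0 follows from that at 1.5-fold. No paired analysis was possible because there is a single group.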
